A study of Mus musculus with 7 samples.

Results

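Endothelin pathway genes were examined in RNA sequencing counts of mouse epicardial explants lacking lamin B1. The set has 6 members of 22738 gene rows, found by exact gene name. They are the ligand genes Edn1 and Edn3, the converting enzyme genes Ece1 and Ece2, and the receptor genes Ednra and Ednrb. They were chosen by pathway with their counts in these libraries, and so the contrast between the genotypes, in view. The members' differences between genotypes are therefore a description, with no p-value. Whether a member passed in the fit over all genes is recorded and supports nothing.

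The explants came from the ventricles of E12.5 embryos with no treatment. Hearts lay on gelatin-coated wells for 48 hours and were then taken away, and the cells that had crawled out grew for a further 72 hours before RNA was extracted. There were 3 Lmnb1-/- libraries and 4 wild type libraries, all on a mixed C57BL/6, 129S4Sv/Jae and 129S6/SvEvTac background. The labels give no further description of the null allele and no batch. Each library is bulk RNA from an outgrowth, so fewer cells of a type and less RNA per cell cannot be told apart.

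Endothelins are short peptides cut from larger precursors. A furin-type protease makes the first cuts, and an endothelin converting enzyme, a membrane metalloprotease, releases the active peptide. The peptides act on a pair of G protein-coupled receptors. The receptor encoded by Ednra couples to phospholipase C and calcium and contracts smooth muscle, and in mouse embryos it patterns neural crest cells of the pharyngeal arches. The receptor encoded by Ednrb is needed in mice for melanocytes and enteric neurons, releases nitric oxide when it sits on endothelium, and clears the ligand. Endothelial cells are the best known source of endothelin-1.

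The labels held for the targeted gene. Lmnb1 had 4, 2 and 4 counts in Lmnb1-/- replicates 1 to 3, against 463, 185, 488 and 567 in wild type replicates 1 to 4. Total counts were 1786519 to 3066936 in Lmnb1-/- libraries and 1024898 to 2732236 in wild type libraries. Xist and Y-linked counts showed 3 male Lmnb1-/- libraries, and 2 male and 2 female wild type libraries. All 12 listed epicardial markers were present at a testable level, Lrrn4, Msln and Upk1b being the most abundant, and none passed between genotypes. Their summed level was 2615 to 3097 CPM in Lmnb1-/- libraries and 2904 to 3902 CPM in wild type libraries. Of these 12 markers 5 had an unadjusted p under 0.05 in the edgeR fit, 2 of them higher in Lmnb1-/-, against 13.6% of all tested genes. The median log2 fold change of the 12 was -0.26, with 4 above 0 and 8 below.

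The explants contained transcripts of the ligand gene Edn1 and of both converting enzymes, and next to none of either receptor. Edn1, Ece1 and Ece2 passed the filter on low counts and Edn3, Ednra and Ednrb did not. Edn1 was higher in Lmnb1-/- explants, at 50.8 ± 7.17 CPM (SD, n = 3), against 29.1 ± 3.46 CPM in wild type explants (SD, n = 4). Ece1 was lower, at 68.1 ± 5.69 CPM in Lmnb1-/- explants and 90.4 ± 13.3 CPM in wild type explants. Of the 3 tested members 1, Edn1, passed an adjusted p of 0.05, and its direction was higher. Over all genes 0.362% passed with a higher level and 0.343% with a lower level in Lmnb1-/- explants, or 0.705% in either direction. The members were picked with these calls known, so nothing is read from the count.

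Edn1 encodes the precursor of endothelin-1. Its counts were 167, 100 and 83 in Lmnb1-/- replicates 1 to 3, and 60, 26, 79 and 80 in wild type replicates 1 to 4. Scaled for depth, these were 53.7, 56.1 and 42.6 CPM in Lmnb1-/- libraries, against 26.1, 26.9, 29.7 and 33.7 CPM in wild type libraries. Every Lmnb1-/- library lay above every wild type library, and the groups were closest between Lmnb1-/- replicate 3 and wild type replicate 4. The fitted log2 fold change was 0.79 (SE 0.16), a 1.73-fold higher level. The spread among wild type libraries, an SD of 3.46 CPM, was below the 4.02 CPM that counting alone gives at this depth, and that among Lmnb1-/- libraries, 7.17 CPM, was above the 4.85 CPM from counting. All counts of Edn1 were in the column of counts used here and the second column held 0.

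The record of Edn1 in that fit depended on single libraries. It passed on leaving out wild type replicate 1. It did not pass on leaving out wild type replicate 2, 3 or 4, or Lmnb1-/- replicate 1, 2 or 3. The fold change itself moved little, from 0.72 without Lmnb1-/- replicate 2 to 0.91 without Lmnb1-/- replicate 3 on the log2 scale. Within male libraries it was 0.71 (SE 0.20), and the call was lost. The 2 female wild type libraries, replicates 1 and 3, had 26.1 and 29.7 CPM. The male ones, replicates 2 and 4, had 26.9 and 33.7 CPM. All 3 Lmnb1-/- libraries were male, so sex was partly confounded with genotype, and a difference between the sexes was not tested.

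**Figure D1:**
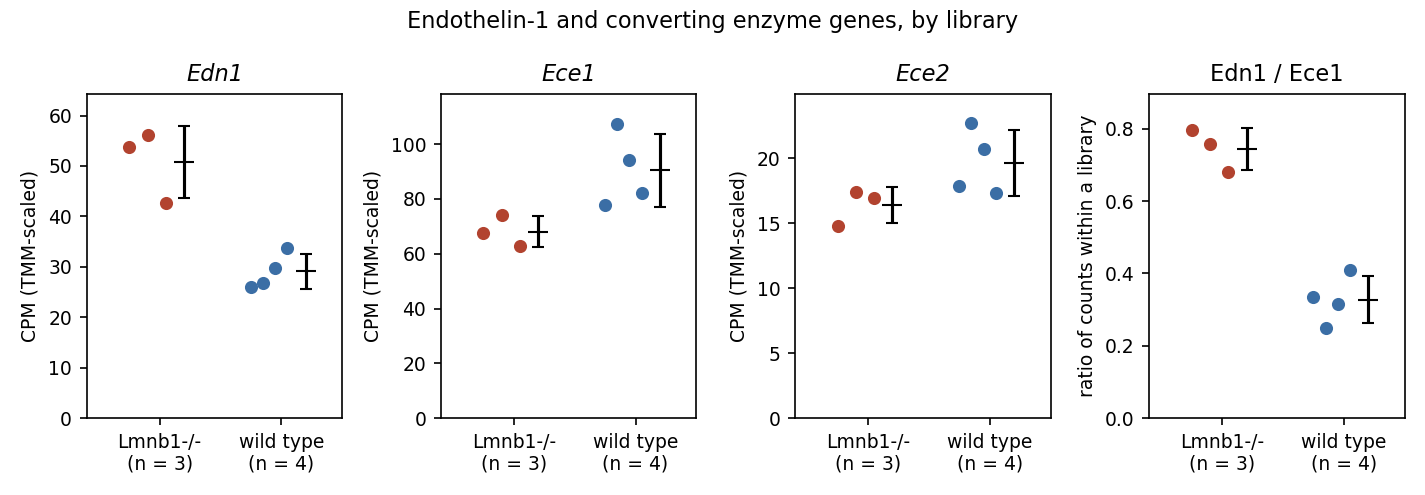
TMM-scaled CPM of Edn1, Ece1 and Ece2, and the ratio of Edn1 to Ece1 counts, one point per library, with 3 Lmnb1-/- libraries left of 4 wild type libraries. Horizontal marks with bars are the mean ± SD. Edn1 points lie at 42.6 to 56.1 CPM in Lmnb1-/- libraries and 26.1 to 33.7 CPM in wild type libraries, and the ratios lie at 0.680 to 0.795 in Lmnb1-/- libraries and 0.250 to 0.410 in wild type libraries.

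Ece1 encodes the main endothelin converting enzyme. Its counts were 210, 132 and 122 in Lmnb1-/- replicates 1 to 3, and 179, 104, 250 and 195 in wild type replicates 1 to 4. In CPM these were 67.5, 74.0 and 62.7 in Lmnb1-/- libraries, and 77.9, 107, 94.1 and 82.2 in wild type libraries. All Lmnb1-/- libraries lay below all wild type libraries, and the nearest were Lmnb1-/- replicate 2 and wild type replicate 1. The log2 fold change was -0.39 (SE 0.14). The wild type libraries were spread more widely than counting gives, with an SD of 13.3 CPM against 7.33 CPM, whereas Lmnb1-/- libraries had 5.69 CPM against 5.64 CPM. The ranges of the genotypes lay apart in 2 of the 3 tested members, Edn1 and Ece1, and in 13.3% of all tested genes.

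Ece2 encodes a related enzyme that works at acidic pH and is best known from nervous tissue. It had 46, 31 and 33 counts in Lmnb1-/- replicates 1 to 3, and 41, 22, 55 and 41 in wild type replicates 1 to 4. These were 14.8, 17.4 and 17.0 CPM in Lmnb1-/- libraries, and 17.8, 22.7, 20.7 and 17.3 CPM in wild type libraries. The groups overlapped, since wild type replicate 4 lay just below Lmnb1-/- replicate 2. The log2 fold change was -0.25 (SE 0.21), with an interval of -0.66 to 0.16, so neither a fall nor a small rise can be told from no change. In the GENCODE annotation Ece2 shares exons with a read-through transcript that starts at its neighbour Eef1akmt4, and the counts of the row cannot be divided between them.

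The balance of Edn1 and Ece1 within a library differed between the genotypes. The ratio of Edn1 to Ece1 counts was 0.795, 0.758 and 0.680 in Lmnb1-/- replicates 1 to 3, against 0.335, 0.250, 0.316 and 0.410 in wild type replicates 1 to 4. That the genotypes do not overlap in it follows from the ranges of Edn1 and Ece1 given above and adds nothing to them. Corrected for exon length, Edn1 stood at 1.53 to 1.79 times Ece1 in Lmnb1-/- libraries and at 0.563 to 0.924 times Ece1 in wild type libraries. Between the converting enzymes, Ece1 stood at 2.59 to 3.19 times Ece2 per length in Lmnb1-/- libraries and 3.05 to 3.33 times in wild type libraries, ranges that overlap.

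On the scale of CPM per kilobase of exon, the order of the members was thus not the same in the genotypes. In Lmnb1-/- explants Edn1 came first at 23.8 ± 3.35 (SD, n = 3), then Ece1 at 14.1 ± 1.18 and Ece2 at 4.86 ± 0.413. In wild type explants Ece1 came first at 18.8 ± 2.76 (SD, n = 4), then Edn1 at 13.6 ± 1.62 and Ece2 at 5.83 ± 0.757. In either genotype the ranges of these 3 neighbours did not overlap. The nearest were Edn1 and Ece1 in wild type explants, where Edn1 reached 15.8 and Ece1 began at 16.2. Edn1 was above 86.9% of 21692 genes with a known length in Lmnb1-/- explants and above 78.7% in wild type explants. The rest of the members, and Edn2, lay far below, at no more than 0.440 in any library. Their order is not given, since no library held over 2 counts of any of them.

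**Figure D2:**
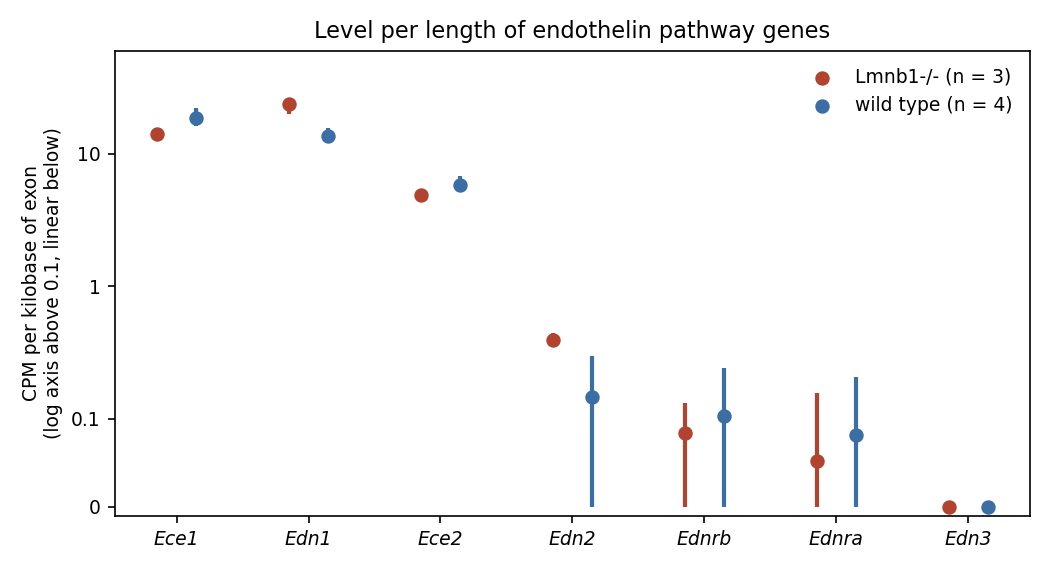
CPM per kilobase of exon of the members and of Edn2, with Lmnb1-/- explants left of wild type explants for each gene; points are means and vertical lines run from the lowest to the highest library. The axis is logarithmic above 0.1 and linear below, and shows Edn1 above Ece1 in Lmnb1-/- explants (23.8 and 14.1) and below it in wild type explants (13.6 and 18.8), with receptors near 0.

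Receptor transcripts were at the limit of detection in every library. Ednra had 0, 1 and 0 counts in Lmnb1-/- replicates 1 to 3, and 0, 0, 2 and 1 in wild type replicates 1 to 4. Ednrb had 0, 1 and 1 counts in Lmnb1-/- replicates 1 to 3, and 0, 1, 2 and 0 in wild type replicates 1 to 4. No library reached the floor of 3 counts for either receptor, so no fold change is given. Pooled over 6745432 counts, the exact Poisson 95% upper limit in Lmnb1-/- explants was 0.826 CPM for Ednra and 1.07 CPM for Ednrb. Over 8412885 counts it was 1.04 CPM for each receptor in wild type explants. These limits cover counting error only.

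Edn3, whose peptide acts through the Ednrb receptor on neural crest derivatives in mice, had 0 counts in all 7 libraries. The exact Poisson 95% upper limit, on the same basis as for the receptors, was 0.547 CPM in the pooled Lmnb1-/- libraries and 0.438 CPM in the pooled wild type libraries. The simpler limit of 3 counts of the total gives 0.445 CPM in Lmnb1-/- and 0.357 CPM in wild type libraries. Edn2, the other ligand gene, had 2, 1 and 1 counts in Lmnb1-/- replicates 1 to 3 and 1, 0, 0 and 1 in wild type replicates 1 to 4, all under the floor. Edn1 was thus the only endothelin ligand gene above 3 counts in any library. Such low totals are common in these tables, where 39.2% of rows had 5 or fewer counts over all libraries and 26.3% had 0.

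Other receptors for vasoactive signals show what this depth can detect. These were chosen after their values were seen, and levels are CPM per kilobase of exon. The thrombin receptor gene F2r stood at 294 in Lmnb1-/- explants and 318 in wild type explants, and the vasopressin receptor gene Avpr1a at 24.0 in Lmnb1-/- explants and 18.7 in wild type explants. The natriuretic peptide receptor genes Npr2 and Npr3 stood at 3.98 and 3.27 in Lmnb1-/- explants and at 5.47 and 3.05 in wild type explants. The angiotensin receptor gene Agtr1a was low, with 5 counts in all in Lmnb1-/- explants and 29 in wild type explants. Others of this list were as low as the endothelin receptors or lower. The receptor genes Agtr2, Bdkrb1 and Uts2r had 0 counts in every library, and Agtr1b and Bdkrb2 had 1 each in Lmnb1-/- explants and 0 in wild type explants. Ednra was at 0.0516 in Lmnb1-/- explants and 0.0810 in wild type explants on this scale, and Ednrb at 0.0840 in Lmnb1-/- explants and 0.105 in wild type explants.

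The promoters of Edn1 and Ece1 are shown because these members differed between the genotypes in opposite directions. Each sequence is the 250 bases before the annotated start, plus strand, from RefSeq on GRCm38.p6, at chr13:42301226-42301475 for Edn1 and chr4:137861987-137862236 for the most upstream of the 4 annotated Ece1 starts. Capitals mark the letters CCAAT on either strand, which read ATTGG when they lie on the other strand.
Edn1: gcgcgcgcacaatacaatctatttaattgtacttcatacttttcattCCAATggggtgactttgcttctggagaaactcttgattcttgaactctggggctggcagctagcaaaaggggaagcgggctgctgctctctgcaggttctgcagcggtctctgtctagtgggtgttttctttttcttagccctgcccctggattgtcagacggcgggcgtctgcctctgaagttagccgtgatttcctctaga
Ece1: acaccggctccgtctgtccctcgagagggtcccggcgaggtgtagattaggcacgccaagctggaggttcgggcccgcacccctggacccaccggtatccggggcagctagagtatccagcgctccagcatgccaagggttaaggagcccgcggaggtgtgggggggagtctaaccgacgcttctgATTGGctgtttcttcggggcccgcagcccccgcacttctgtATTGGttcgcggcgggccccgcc

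These windows differ in base composition. That of Edn1 was 50.4% G or C with 9 CG pairs, and that of Ece1 was 66.8% G or C with 22 CG pairs, where the median over 32851 promoters was 6. Edn1 held CCAAT once, 199 to 203 bases before the start, and Ece1 held it on the other strand at 60 to 64 and at 19 to 23 bases before the start, as did 33.8% of all promoters at least once. The letters TGANTCA of AP-1, GATAA of GATA factors, ACGTG of the hypoxia response element and TATAAA of the TATA box were searched on both strands and found in neither window. They occur in 6.75%, 22.6%, 16.6% and 12.4% of promoters of this length. The search took only these exact letters, in the 250 bases before 1 annotated Edn1 start. It does not show that such sites are absent from the Edn1 promoter. The counts are per gene and do not say which start of either gene was used, and the Ece1 starts differ. The window of the third start held ACGTG on both strands, and that of the fourth had 53.2% G or C and 5 CG pairs, nearer to Edn1.

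The genes closest to each tested member over the 7 libraries were found by the root mean square difference of centred log2 CPM, as a description of these libraries. Closest to Edn1 were Mybl1, a transcription factor gene, Flrt3, an adhesion protein gene, and Nsg1, at differences of 0.11, 0.12 and 0.14, where the median over 7896 genes was 0.46. Mybl1 had 55.3, 63.9 and 48.8 CPM in Lmnb1-/- libraries and 33.1, 34.1, 32.0 and 43.0 CPM in wild type libraries. As for Edn1, replicate 3 was lowest among the Lmnb1-/- libraries and replicate 4 highest among the wild type libraries. Closest to Ece1 were 1600012H06Rik, Pxdn, which encodes peroxidasin, and Syne2, which encodes the nuclear envelope protein nesprin-2, at 0.024, 0.047 and 0.048. Closest to Ece2 were Golga4, Lrrc8a and Senp5, at 0.053, 0.054 and 0.061. None of these 9 genes passed between genotypes in the edgeR fit, against 0.705% of all tested genes. They were picked by their profiles over the same 7 libraries, so nothing is read from their calls.

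Beyond the members, 124 genes of endothelin processing, signalling and neighbouring systems were listed, and 81 passed the filter. None of the 81 passed in either direction in edgeR's quasi-likelihood fit over all genes, against 0.705% of all tested genes. At so low a share a count of 0 does not show that the listed genes were unchanged. At an unadjusted p under 0.05 there were 15, 4 higher and 11 lower in Lmnb1-/- explants, which is 18.5% of them, against 13.6% of all tested genes. DESeq2 called 2, Gucy1a3 and Mylk, and limma voom called 0. The median log2 fold change of the 81 was -0.07, against -0.02 over all tested genes.

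Upstream of the receptor, precursor processing genes had levels of the same order in the genotypes. Of 10 listed, 5 were tested, and their median log2 fold change was -0.0047. Cpe, encoding carboxypeptidase E, and Pcsk5, encoding a furin-like protease, had the smallest p, with log2 fold changes of -0.52 (SE 0.38) and 0.19 (SE 0.18). The enzyme genes Mme, which encodes the endothelin-degrading protease neprilysin, and Kel and Cma1 were too low to test. Among 14 transcription factor genes known to act on Edn1, 11 were tested, and Gata6 and Smad3 had the smallest p. Gata6 was at 81.4 ± 9.63 CPM in Lmnb1-/- explants and 109 ± 7.75 CPM in wild type explants, a log2 fold change of -0.42 (SE 0.12, edgeR adjusted p = 0.147). Smad3, which carries TGF-beta signals, had 0.32 (SE 0.14, edgeR adjusted p = 0.348).

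Genes downstream of the receptors lay on both sides of 0. Of 13 G protein genes 10 were tested, and their median log2 fold change was 0.01. Gnaq and Gnai3 had the smallest p, with log2 fold changes of 0.31 (SE 0.13) and 0.24 (SE 0.11). Gnaq encodes the G protein that links the endothelin receptors to phospholipase C. Among phospholipase C and calcium genes 13 of 17 were below 0, with a median of -0.25. Cacna1c, encoding the L-type calcium channel, was at 8.27 ± 3.48 CPM in Lmnb1-/- explants and 19.8 ± 7.78 CPM in wild type explants (edgeR adjusted p = 0.155). Trpc1, encoding a cation channel, was at 8.10 CPM in Lmnb1-/- explants and 14.3 CPM in wild type explants, a log2 fold change of -0.80 (SE 0.25, edgeR adjusted p = 0.165).

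Receptor regulators had a median log2 fold change of 0.30. There Rgs4 had a log2 fold change of -0.78 (SE 0.25) and Rgs16 one of 0.54 (SE 0.18). Both encode proteins that shut off G protein signals, and their values lay on opposite sides of 0. In the nitric oxide arm Gucy1a3, a subunit of the nitric oxide receptor, was at 420 ± 27.5 CPM in Lmnb1-/- explants and 592 ± 103 CPM in wild type explants (edgeR adjusted p = 0.114), and Prkg1 had a log2 fold change of -0.48 (SE 0.23). Nos1 and Nos2 were at 0 in every library. Nos3 was too low to test, with 0, 0 and 1 counts in Lmnb1-/- replicates 1 to 3. It had 1, 0, 2 and 0 counts in wild type replicates 1 to 4.

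**Figure D3:**
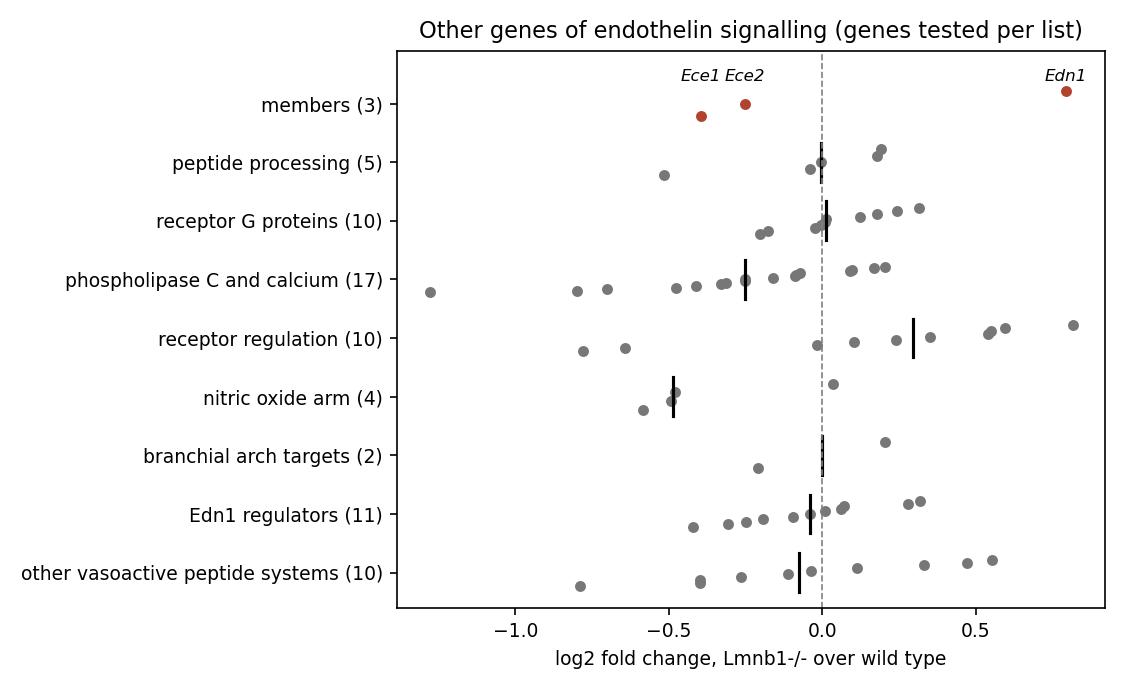
Log2 fold change, Lmnb1-/- over wild type, of the 3 tested members (top row) and of each tested gene of the pathway lists shown, one point per gene, with a bar at each list's median. The members sit at 0.79, -0.25 and -0.39, and list medians run from -0.49 for the nitric oxide arm to 0.30 for receptor regulators.

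Genes that Ednra signalling switches on in the pharyngeal arches of mouse embryos were largely silent. Of 8 listed, Hand1, Dlx3, Dlx5 and Dlx6 had 0 counts in all libraries. Hand2, a transcription factor also used in the heart, and Mef2c were the tested ones, with log2 fold changes of 0.20 (SE 0.16) and -0.21 (SE 0.37). Of 24 genes of other vasoactive systems 10 were tested, with a median of -0.07. Adm, encoding adrenomedullin, and Npr2 had the smallest p, with log2 fold changes of -0.40 (SE 0.23) and -0.40 (SE 0.23).

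Markers of cell types that use the pathway were measured beside these genes. Smooth muscle and pericyte markers summed to 8091 to 8839 CPM in Lmnb1-/- libraries and 10859 to 12129 CPM in wild type libraries. The list was chosen with earlier results of these data known. All 9 tested genes had a log2 fold change below 0, with a median of -1.06. Each also had an unadjusted p under 0.05 in the edgeR fit, against 13.6% of all tested genes. Of the 9, 5 passed as lower in that fit, Acta2, Actg2, Des, Cspg4 and Pdgfrb, against 0.343% of all tested genes. The 5 became 0 without Lmnb1-/- replicate 1, Lmnb1-/- replicate 2 or wild type replicate 3, 1 without Lmnb1-/- replicate 3, 3 without replicate 2 of the wild type and 7 without its replicate 1. Within male libraries 3 fell, Des, Actg2 and Cspg4, and with the sum of both count columns 3 fell, Des, Pdgfrb and Cspg4. Calcium genes named above are known from the same cells, and the part of these cells in their values was not tested. Beside these abundant markers Ednra, a receptor typical of smooth muscle, was at 0 to 1 counts in Lmnb1-/- libraries and 0 to 2 counts in wild type libraries.

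Endothelial markers, of the cells best known for making endothelin-1, summed to 65.8 to 89.7 CPM in Lmnb1-/- libraries and 62.2 to 88.9 CPM in wild type libraries. Of 12 listed, 4 were tested and none passed in the edgeR fit, with 1 of them, Kdr, at an unadjusted p under 0.05. Kdr, a growth factor receptor gene named after its values were seen, had 8.04, 10.7 and 7.71 CPM in Lmnb1-/- libraries and 5.22, 3.10, 1.88 and 2.95 CPM in wild type libraries. The listed markers Cldn5 and Sox17 were at 0 throughout, and Pecam1 and Cdh5 had at most 8 counts in any library. On the scale of CPM per kilobase of exon, Edn1 stood at 13.6 in wild type explants, against 0.258 for Cdh5 and 0.174 for Pecam1. The most abundant members of the list were nearer, with Tek at 5.63, Flt1 at 3.78 and Egfl7 at 2.83 in wild type explants. In Lmnb1-/- explants Edn1 stood at 23.8, against 0.201 for Cdh5, 0.533 for Pecam1, 3.92 for Tek, 3.46 for Flt1 and 4.40 for Egfl7. Of the 4 tested markers 2 had a log2 fold change above 0 and 2 below.

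Neural crest, Schwann and melanocyte markers, of cells that use Ednrb and Edn3, summed to 5.05 to 7.71 CPM in Lmnb1-/- libraries and 4.64 to 9.30 CPM in wild type libraries. None of the 12 was high enough to test, and Sox10, Dct and Tyr were at 0 throughout. Leukocyte markers varied most in proportion, from 37.3 to 498 CPM among Lmnb1-/- libraries and from 69.2 to 288 CPM among wild type libraries. Among Lmnb1-/- libraries the one with the most leukocyte signal, replicate 3 at 498 CPM, had the lowest Edn1, and among wild type libraries the one with the most, replicate 4 at 288 CPM, had the highest. Cardiomyocyte markers summed to 542 to 697 CPM in Lmnb1-/- libraries and 546 to 872 CPM in wild type libraries, and none of the 4 tested passed. The part of these cells in the endothelin values was not tested.

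The fold changes of the 3 tested members kept their direction under all 16 alternative settings. Edn1 was higher in Lmnb1-/- explants in each, at 0.71 to 0.91 on the log2 scale. Ece1 was lower in each, at -0.46 to -0.31, and so was Ece2, at -0.31 to -0.17. The settings reuse the same libraries and are not separate measurements.

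**Figure D4:**
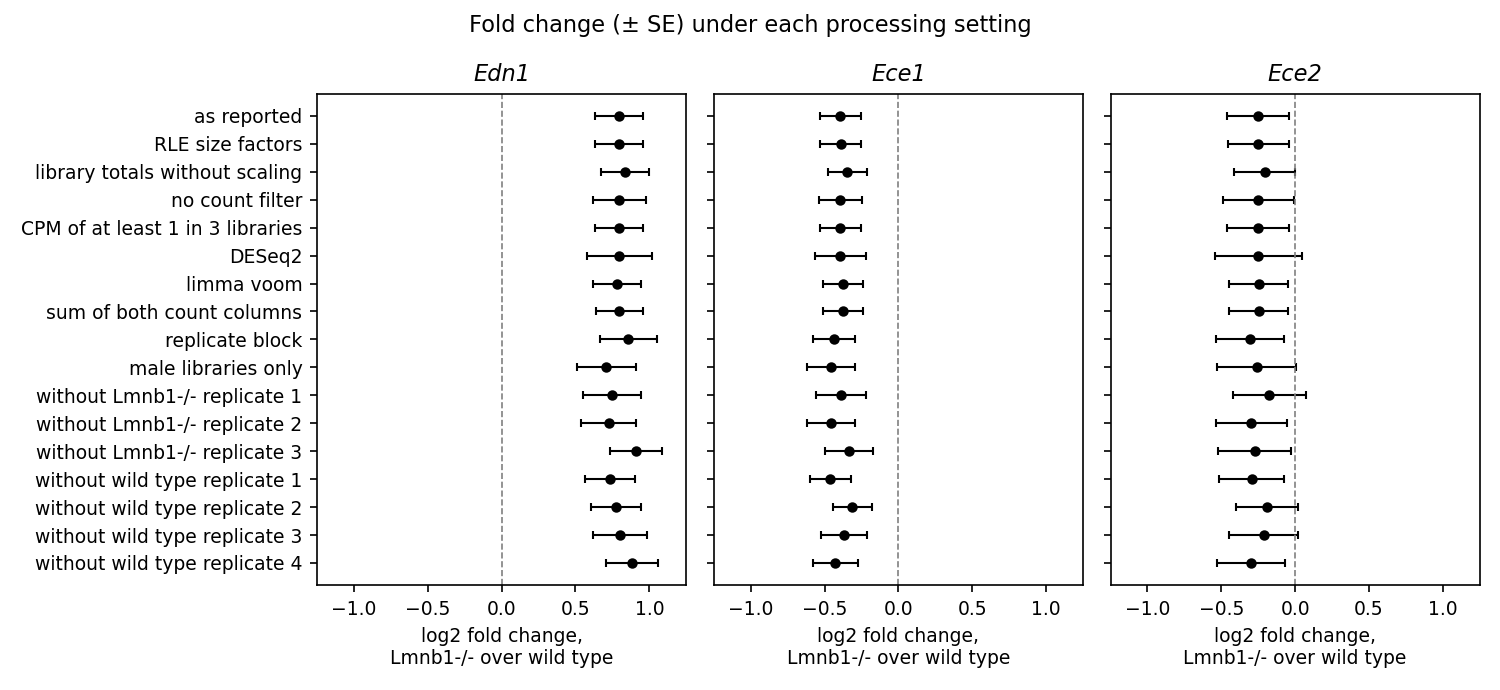
Log2 fold change, Lmnb1-/- over wild type, with bars of 1 SE, of Edn1, Ece1 and Ece2 as reported and under each alternative setting, one row per setting. Edn1 stays between 0.71 and 0.91, Ece1 between -0.46 and -0.31 and Ece2 between -0.31 and -0.17.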

How the data were processed

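Count tables were deposited for 7 epicardial explant libraries, 3 Lmnb1-/- and 4 wild type, each with 22738 gene rows and 2 unnamed columns of whole-number counts. Per the file headers, these counts carry no normalization. TopHat, edgeR and mm9 are named by the submitters' processing notes, while annotation and counter are not given in the sources used here. The first count column was used. A gene name occurs more than once in 949 rows, which were not merged. The kit in the labels does not keep strand, and overlapping genes can share reads.

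Total counts ran from 1024898 to 3066936 per library. Genes were filtered with filterByExpr and scaled by TMM, and the genotypes were compared over all 10775 tested genes with the quasi-likelihood test of edgeR 4.0.16 under R 4.3.3 (limma 3.58.1 for voom), calling genes at a Benjamini-Hochberg adjusted p under 0.05. A positive log2 fold change means higher in Lmnb1-/-. Standard errors were derived from the fold change and its F statistic. CPM values were computed from the deposited counts and the TMM-adjusted totals. Levels per length divide CPM by the kilobases of exon of a gene in GENCODE vM21 (GRCm38), which gave a length for 98.2% of gene names. Poisson limits and floors cover counting error only, and 3 counts per library is the floor. The interval of a log2 fold change is 1.96 SE to each side in the edgeR fit, and takes in the spread between libraries.

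The 6 members and all gene lists were chosen with earlier results of these data known. The members' own contrast is therefore given without a p-value. In each pathway list the text names the genes past the threshold or, where there were none, the 2 of smallest p. Of the marker lists it names 3 of the most abundant genes in the epicardial and endothelial lists, and the genes past the threshold in the smooth muscle and pericyte list. The cardiomyocyte and leukocyte lists are given as sums. The 3 genes most like each tested member are those of mean log2 CPM of at least 4 (prior count of 2) with the smallest root mean square difference in centred log2 CPM. Genes at or near 0 counts are named outside this rule for their absence, and other genes outside it are marked where they appear. Alternatives were RLE factors, unscaled totals, no filter, a CPM of at least 1 in 3 libraries, DESeq2 1.42.0, limma voom, the sum of both columns, a replicate block, male libraries only and each library left out. A list of contraction genes is counted in the totals and not reported here on its own. The labels do not say whether the libraries came from separate embryos, so p-values measure the spread between these libraries, whatever its origin.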

Additional observations from a re-analysis of the deposited data

Results flagged for a closer look

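The second count column, used above only in the setting that sums both columns, held a few counts of Ece1. There were 6 in all in Lmnb1-/- libraries (2, 1 and 3 in replicates 1 to 3) and 2 in wild type libraries (1, 0, 0 and 1 in replicates 1 to 4), and as a share of that column's total each Lmnb1-/- library lay above each wild type library. The direction is opposite to that of the 464 and 728 counts of Ece1 in the column used, which the 6 and 2 would hardly alter. These few counts lie at or under the floor of 3 per library, so no difference between genotypes is read from them.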

How the results depend on the processing

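The number of genes called between genotypes, 76, was 180 without a count filter, 175 with DESeq2 and 44 with the sum of both count columns, and ran from 3 to 279 on leaving out each library. It stayed within 1.5 times of 76 under the other 6 settings. The number of listed pathway genes called, 0, was 1 without a count filter (Gucy1a3), 2 with DESeq2 (Gucy1a3 and Mylk), 1 with the replicate block (Cacna1c) and 3 in male libraries only (Gucy1a3, Mylk and Cav1), and ran from 0 to 2 on leaving out each library (2 without wild type replicate 1, Mylk and Cacna1c). Edn1 passed under 6 of 16 alternatives, and lost its call with limma voom, the sum of both columns, the replicate block and male libraries only, besides 6 of the 7 libraries left out. The cause was not tested. Same-numbered libraries correlated at 0.26, -0.16 and -0.09 in their deviations from the group means. Of 3 Lmnb1-/- libraries 1 correlated best with its own number. The labels give no batch, and these few values cannot tell whether the numbers mark pairs. With the replicate block 77 genes passed and Edn1 had a log2 fold change of 0.86. Levels per length fell with the sum of both columns, to 11.2, 15.5 and 4.79 CPM per kilobase in wild type for Edn1, Ece1 and Ece2, since the total grows and these genes gain almost no counts. Receptor levels are limited by depth.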
